A study of Mus musculus with 10 samples.

Results

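The genes described here encode the inner ring of the nuclear pore complex and the nucleoporins that hold the pore in the nuclear membrane. They were taken by symbol from the deposited gene table: Nup205, Nup188, Nup93, Nup155, Nup35, Nup54, Ndc1, Pom121, Nup210 and Aaas. All 10 symbols were found among the 52171 genes of the table, and all 10 passed the filter on low values. Expression was measured by RNA-seq in MLL-AF9-driven leukemia stem cells of mice, sorted from bone marrow as Lin-, Sca-1-, c-Kit+, CD16/32+ and CD34+ cells. The 5 floxed control libraries had the genotype Nup214fl/+, that is 1 floxed and 1 unaltered allele of the nucleoporin gene Nup214. The 5 heterozygous libraries were Nup214fl/+,Tie2-Cre, in which Cre is driven in endothelial and blood cells and can delete the floxed allele. MLL-AF9, a fusion oncogene of acute myeloid leukemia, and the floxed allele were common to both groups. Tie2-Cre was carried by the heterozygous group alone, so an effect of Cre and an effect of losing a Nup214 allele cannot be told apart. The labels used here give no age or sex and do not say how many mice were pooled.

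The nuclear pore complex is the channel through which proteins and RNA pass between nucleus and cytoplasm. Its inner ring lines the pore wall and is built from the large scaffold proteins Nup205 and Nup188, the linker Nup93, the membrane-binding Nup155 and the small linker Nup35. Nup54 belongs to the Nup62 complex, whose phenylalanine-glycine repeats fill the central channel and which Nup93 anchors to the inner ring. Ndc1, Pom121 and Nup210 span the membrane, and Aaas encodes ALADIN, a peripheral protein that Ndc1 recruits. Nup214 itself sits on the cytoplasmic face of the pore and is not part of the inner ring.

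Values are normalized reads, the authors' read counts divided by 1 factor per library. Recovered depth was 20807482 to 30075119 reads per control library and 24597355 to 39080486 reads per heterozygous library. The 10 genes were covered by between 132 reads (Pom121, heterozygous library 5) and 3638 reads (Nup210, heterozygous library 2) per library. Nup214, the targeted gene, averaged 906 ± 69.8 and 484 ± 83.1 normalized reads (SD, n = 5 each), and each of the 5 heterozygous libraries was below every control. Its exact two-sided permutation p was 0.00794, the smallest that 252 assignments can give. Kit, a gene of the sort gate, read 1822 to 2820 in controls and 673 to 1676 in heterozygous libraries. Cd34 read 169 to 410 and 71.4 to 394, and Fcgr3 6177 to 13844 and 4501 to 30703. Of 9 genes of the sorted progenitors, limma called 2 higher (Prtn3 and Ctsg) and 2 lower (Kit and Ly6a), against 5% and 8.01% of all genes. The median log2 fold change of the 9 was -0.0083. Of 5 endothelial genes, Cdh5, Tek, Kdr and Emcn were low, with at most 5.24, 2.09, 11.2 and 7.86 in any library. Pecam1, which blood cells also express, read 385 to 639 per control library and 518 to 1294 per heterozygous library, and the sum of the 5 was 395 to 659 against 1303, 988, 521, 544 and 1058 for heterozygous libraries 1 to 5.

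Heterozygous libraries 1 and 2 stood apart from libraries 3, 4 and 5 in markers of other cells and in Mpo of the sorted progenitors. Mpo read 813165 to 1130910 in controls and 677447, 1102480, 118362, 203243 and 182385 in heterozygous libraries 1 to 5. Without heterozygous libraries 1 and 2, limma called 1 of the 9 progenitor genes higher and 4 lower (9.33% and 12.1% of all genes). Without libraries 3, 4 and 5 it called 2 higher and 1 lower (7.44% and 8.22%). Summed over 8 erythroid genes, heterozygous libraries 3, 4 and 5 held 2347, 2740 and 2225 normalized reads, against 6.68 and 115 for libraries 1 and 2 and 13.9 to 71.4 for the controls. For 10 genes of mature neutrophils the sums were 2111820, 1698020 and 3893150 for libraries 3, 4 and 5, only 36115 and 89099 for libraries 1 and 2, and 1101780 to 1617420 for the controls. These genes did not move alike. Camp read 172477 to 344937 in controls and 536, 816, 114066, 69229 and 205850 in heterozygous libraries 1 to 5. Retnlg read at most 18.3 in controls and 6.68, 12.3, 4218, 747 and 43005 in heterozygous libraries 1 to 5. The sum over 6 B cell genes, most of it from Ighm, was 4379 to 6608 for the controls and 9086, 9938, 17990, 28208 and 29770 for heterozygous libraries 1 to 5. Of those 6 genes, limma called 2 higher (Cd79a and Ighm) and 1 lower (Cd79b, with means of 1125 and 645, adjusted p = 0.0105). Over 8 monocyte and macrophage genes the sum, most of it from Ly6c2, was 77799 to 113925 for the controls. It was 62442 and 94076 for heterozygous libraries 1 and 2, and 23710, 29893 and 46343 for libraries 3, 4 and 5. Of those 8 genes, limma called 4 higher (Cd68, C1qa, C1qb and C1qc) and 1 lower (Ly6c2). The sum of 6 T and NK cell genes was between 4.90 and 38.4 in all libraries. The part of these cells in the results below was not tested. The results on the nucleoporin genes are given with all libraries and with either set of heterozygous libraries left out. In bulk samples, fewer cells of a type and less RNA per cell cannot be told apart.

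Promoter sequence from RefSeq (GRCm38.p6) was available for 9 of the 10 genes and is shown for the genes on which the comparison turns: Pom121 and Nup155, which were lower in heterozygous cells, the paralogous scaffolds Nup188 and Nup205, and Nup93. Each line runs 5′ to 3′ on the gene's strand, from 120 bases before the RefSeq start to 30 bases after it. Gene spans given below are from GENCODE M21 and can start elsewhere. The span of Nup205 starts upstream of the whole stretch shown. Those of Nup155 and Nup188 start within their stretches, upstream of the RefSeq start. Capitals mark matches, on either strand, to 5 motifs: CACGTG (the E-box bound by MYC and related factors), AAGATGGC (a YY1 motif), CCGGAAG (an ETS motif), TGACGTC (a cyclic AMP response element) and GGGCGG (a GC box). The stretches are chr5:135394517-135394666 on the minus strand for Pom121, and on the plus strand chr15:8109193-8109342 for Nup155, chr2:30286296-30286445 for Nup188, chr6:35177496-35177645 for Nup205 and chr8:94214444-94214593 for Nup93.
Pom121: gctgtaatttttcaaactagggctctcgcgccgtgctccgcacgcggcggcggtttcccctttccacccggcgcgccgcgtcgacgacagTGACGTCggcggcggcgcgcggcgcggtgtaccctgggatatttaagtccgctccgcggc
Nup155: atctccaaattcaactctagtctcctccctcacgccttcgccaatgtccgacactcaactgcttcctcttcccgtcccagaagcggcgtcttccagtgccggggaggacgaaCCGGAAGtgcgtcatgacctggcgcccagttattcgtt
Nup188: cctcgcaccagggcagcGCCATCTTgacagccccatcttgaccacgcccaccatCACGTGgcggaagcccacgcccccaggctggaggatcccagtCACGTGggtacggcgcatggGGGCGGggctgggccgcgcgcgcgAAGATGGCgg
Nup205: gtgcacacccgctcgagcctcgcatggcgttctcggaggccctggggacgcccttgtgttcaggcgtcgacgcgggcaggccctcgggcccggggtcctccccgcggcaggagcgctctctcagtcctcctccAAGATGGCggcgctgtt
Nup93: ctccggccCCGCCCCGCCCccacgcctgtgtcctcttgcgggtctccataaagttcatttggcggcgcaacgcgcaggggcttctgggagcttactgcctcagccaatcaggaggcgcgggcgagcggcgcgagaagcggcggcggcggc

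Over the full windows of 300 bases, AAGATGGC was found in 2 of the 9 genes with a window, Nup188 and Nup205, against 2.75% of all 32851 promoter windows. In both it lay just after the RefSeq start, at base 14 for Nup205 and base 21 for Nup188, and Nup188 held another match upstream. CACGTG occurred in Nup188, Nup54 and Nup93 (7.15% of all windows), in Nup93 upstream of the stretch shown. CCGGAAG occurred in Nup155, Nup54 and Aaas (8.86%), TGACGTC in Pom121 (3.21%), and GGGCGG in Nup155, Nup188, Nup205, Nup93, Nup210 and Ndc1 (35.7%). These are letter matches and say nothing of binding. Pom121 and Nup155, the genes called lower, shared none of these 5 motifs.

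Across the inner ring and membrane genes, 2 of 10 were called lower in heterozygous cells and none higher. The genes were Nup155, at 74.2% of the control mean, and Pom121, at 69.4%. Limma with Benjamini-Hochberg adjustment over all 22458 tested genes called 13% of genes in either direction, 5% higher and 8.01% lower. The 2 of 10 called in either direction are close to that 13%. The count of 0 higher is from limma, and edgeR also called 0 and DESeq2 called 1 (Nup93). EdgeR called 7.63% of its tested genes higher and 6.1% lower, and DESeq2 called 7.6% and 8.81%. At an unadjusted limma p under 0.05, 2 genes were higher (Nup93 and Aaas) and 3 lower (Nup188, Nup155 and Pom121), against 10.5% and 21.6% of all genes. The median log2 fold change of the 10 genes was 0.03, beside -0.19 for all tested genes and 0.08 for the 9056 tested genes with a mean of at least 100 normalized reads. All 10 nucleoporin genes had means above that level, where 10.2% of genes were called higher and 3.54% lower. With only 10 genes, the counts of 2 lower and 0 higher cannot be set apart from these shares, and neither count was tested.

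The count of 2 lower was the same after quantile normalization (2.3% of all genes lower, 3.47% higher) and by edgeR and DESeq2. After upper quartile scaling 3 of the 10 were lower (9.1% of all genes lower, 3.79% higher). It fell to 1 after TMM scaling (7.02% lower, 6.24% higher, with 1 of the 10 higher), with no filter (2.81% and 2.08%) and with sample quality weights (8.53% and 5.66%). Leaving out 1 library at a time moved the share of all genes called higher between 2.49% and 5.85% and the share called lower between 2.67% and 10%. The counts were 559 higher and 599 lower with control library 1 left out, 727 and 1109 with control 2, and 653 and 762 with control 5. With control 3 left out 718 genes were higher, and with heterozygous library 5 left out 780 were higher and 1014 lower.

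**Figure D1:**
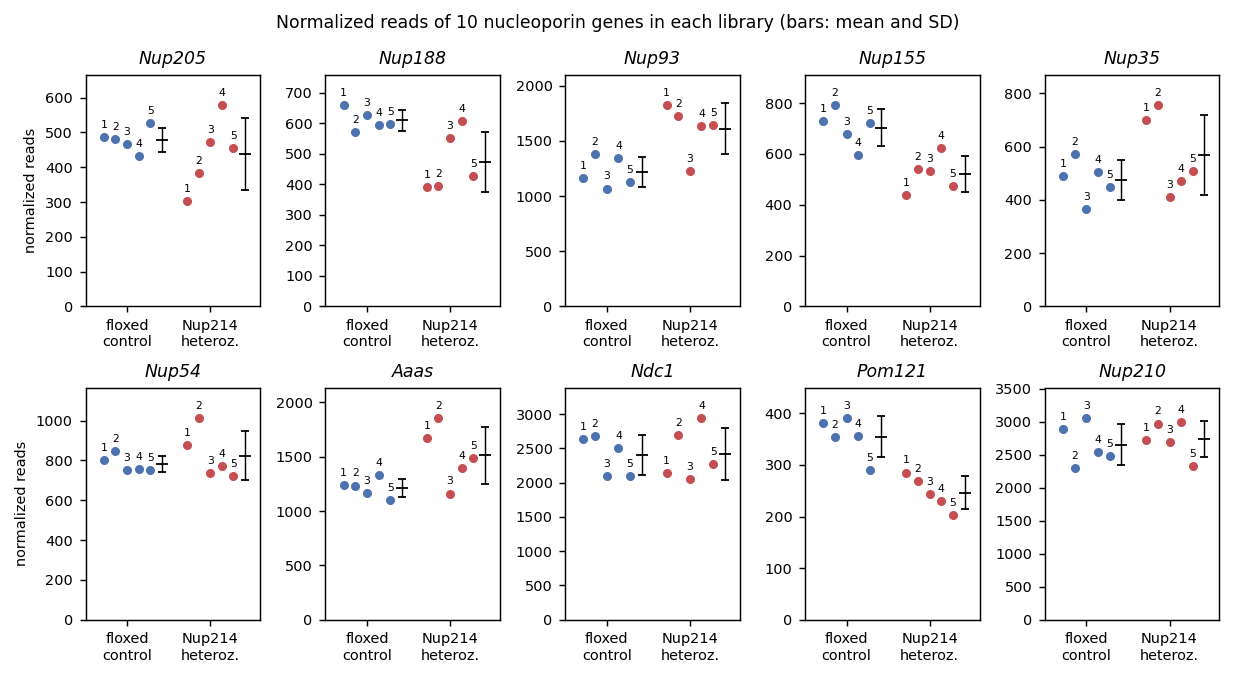
Normalized reads of the 10 genes in each library, with replicate numbers beside the points, blue for floxed control, red for Nup214 heterozygous, and bars for mean and SD (n = 5). Pom121 is the gene whose groups do not overlap, with 289 to 391 in controls and 203 to 285 in heterozygous libraries.

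Pom121 encodes a transmembrane nucleoporin with a repeat-bearing tail, needed early in the assembly of new pores, and lies at chr5:135376141-135394546 (mm10, minus strand, 1 annotated transcript). It read 381, 355, 391, 357 and 289 normalized reads in control libraries 1 to 5 and 285, 269, 244, 230 and 203 in heterozygous libraries 1 to 5. All 5 heterozygous libraries were below every control, with a narrow gap between control library 5 and heterozygous library 1. Across all genes, 6.67% had heterozygous libraries wholly below the controls and 4.64% wholly above. The log2 fold change was -0.53 (SE 0.135, 95% interval -0.82 to -0.24, limma adjusted p = 0.0259). The call was lost without control library 1, 2 or 3 (adjusted p = 0.0664, 0.0518 and 0.0560), and likewise when heterozygous library 4 or 5 was left out (adjusted p = 0.0513 and 0.0532). It was kept without heterozygous libraries 1 and 2 (log2 fold change -0.65, adjusted p = 0.00688) and lost without libraries 3, 4 and 5 (-0.35, adjusted p = 0.130).

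Pom121 shares 665 of its 5580 exonic bases with Nsun5, a gene on the opposite strand that encodes an RNA methyltransferase. Strand is not described for these libraries, so reads from the shared bases cannot be told apart. The mean of Nsun5 was 382 ± 16.1 normalized reads for the floxed group and 372 ± 35.5 for the Cre group (SD, n = 5 each), and limma did not call it (adjusted p = 0.830). Pom121l2, a low-level gene related to Pom121, averaged 20.7 ± 4.58 and 8.93 ± 3.24 (limma adjusted p = 0.0375). That call did not hold when control library 1, 2, 3 or 4 was left out (adjusted p = 0.0855, 0.0726, 0.0774 and 0.0649), or heterozygous library 1, 3 or 5 (adjusted p = 0.0599, 0.0616 and 0.0659). Nor did it hold after quantile normalization (log2 fold change -0.72, adjusted p = 0.282), with no filter (adjusted p = 0.0568) or with only heterozygous libraries 1 and 2 against the controls (adjusted p = 0.0764). How reads that fit both genes were counted is not described, and the part of such reads was not tested.

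Among 9056 other genes with a mean of at least 100, those whose log2 levels followed Pom121 most closely over the 10 libraries were Tmem119 (Pearson r = 0.972), Ampd2 (r = 0.971) and Kctd3 (r = 0.969). These r are a description over libraries that share their group difference and depth. Tmem119, which encodes a membrane protein, had a control mean of 985 ± 238 normalized reads and a heterozygous mean of 225 ± 99.7 (SD, n = 5 each). Its log2 fold change was -2.67 without heterozygous libraries 1 and 2 and -1.58 without libraries 3, 4 and 5.

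Nup155 encodes the inner ring protein that touches the pore membrane and binds Nup93 and Nup35, and lies at chr15:8109273-8161247 (plus strand). It read 728, 794, 679, 597 and 720 in control libraries 1 to 5 and 438, 540, 534, 624 and 475 in heterozygous libraries 1 to 5. Of the heterozygous libraries, 4 of 5 were below every control, and library 4 overlapped with control library 4. The log2 fold change was -0.43 (SE 0.124, 95% interval -0.70 to -0.17, limma adjusted p = 0.0371). The call was lost without control library 1, 2, 3 or 5 (adjusted p = 0.0874, 0.0842, 0.0607 and 0.0817). The same held when heterozygous library 1, 2, 3 or 5 was left out (adjusted p = 0.0585, 0.0503, 0.0507 and 0.0749). Without heterozygous libraries 1 and 2 the log2 fold change was -0.37 (adjusted p = 0.0581), and without libraries 3, 4 and 5 it was -0.53 (adjusted p = 0.0215). It was -0.38 after TMM scaling (adjusted p = 0.0672).

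Nup188 and Nup205 encode the large, superhelical scaffold proteins of the inner ring, which are paralogs and occupy like places in it. Nup188 lies at chr2:30286397-30344266 on the plus strand, 1.63 Mb from Nup214. It read 661, 571, 626, 595 and 599 in control libraries 1 to 5 and 392, 394, 552, 606 and 426 in heterozygous libraries 1 to 5. Here 4 of 5 heterozygous libraries were below every control, and library 4 lay within the control range. The log2 fold change of -0.39 (SE 0.139, 95% interval -0.68 to -0.09) did not pass the test (limma adjusted p = 0.0795). It passed without heterozygous library 4 (log2 fold change -0.48, adjusted p = 0.0421), without heterozygous libraries 3, 4 and 5 (-0.63, adjusted p = 0.00358), after upper quartile scaling (-0.45, adjusted p = 0.0403) and with centring on length classes (-0.45, adjusted p = 0.0322). With only heterozygous libraries 3, 4 and 5 against the controls it was -0.22 (adjusted p = 0.235).

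In the annotation 12.4% of the exonic bases of Nup188 overlap other genes. Of those genes, Gm28038 was listed at 0 in all libraries and Gm14471 had means of 6.62 ± 3.21 and 1.03 ± 0.745 normalized reads (SD, n = 5 each), far below Nup188 itself.

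Nup205, at chr6:35177421-35247596 on the plus strand, read 488, 481, 467, 431 and 527 in controls and 303, 382, 473, 580 and 455 in heterozygous libraries 1 to 5. Heterozygous libraries 1 and 2 were below every control and library 4 was above every control. The heterozygous libraries spread more widely, with a coefficient of variation of 23.6% against 7.24% in controls. The difference was -0.16 on the log2 scale (95% interval -0.49 to 0.18, limma adjusted p = 0.516). It was -0.49 when libraries 3, 4 and 5 were left out (adjusted p = 0.0307). Leaving out libraries 1 and 2 turned the direction, to 0.06 (adjusted p = 0.740).

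Nup93 encodes the linker that ties Nup188 or Nup205 to Nup155 and anchors the Nup62 complex. It lies at chr8:94214564-94317227 on the plus strand. It read 1161, 1377, 1069, 1341 and 1125 in control libraries 1 to 5 and 1827, 1725, 1224, 1631 and 1644 in heterozygous libraries 1 to 5. Of the heterozygous libraries, 4 of 5 were above every control and library 3 lay within the control range. The log2 fold change of 0.40 (SE 0.127, 95% interval 0.13 to 0.67) just missed the threshold (limma adjusted p = 0.0531). It passed without heterozygous library 3 (log2 fold change 0.50, adjusted p = 0.0176), after TMM scaling (adjusted p = 0.0321), with DESeq2 on recovered reads (adjusted p = 0.0311) and without heterozygous libraries 3, 4 and 5 (log2 fold change 0.55, adjusted p = 0.00924). Without libraries 1 and 2 it was 0.30 (adjusted p = 0.124).

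Nup93 had a positive log2 fold change and its scaffold partners Nup155, Nup188 and Nup205 negative ones, of which limma called that of Nup155 alone. Their ratios within each library, which no scaling of libraries can change, are given as a description. Nup93 read 1.59, 1.73, 1.57, 2.25 and 1.56 times as much as Nup155 in control libraries 1 to 5 and 4.17, 3.19, 2.29, 2.62 and 3.46 times as much in heterozygous libraries 1 to 5. These ratios did not overlap between the groups, although control library 4 and heterozygous library 3 were nearly equal. How often the ratios of other gene pairs do not overlap was not computed. Of single genes, 6.67% had heterozygous libraries wholly below the controls and 4.64% wholly above. Nup93 has 4257 exonic bases and Nup155 has 11951, and levels also differed by transcript length between libraries, as given below. The part of length in these ratios was not tested. The ratio of Nup93 to Nup188 was 1.71 to 2.41 in controls and 2.22 to 4.66 in heterozygous libraries, and that of Nup93 to Nup205 was 2.14 to 3.11 and 2.59 to 6.02. Both of these ranges overlapped, and the highest ratios were in heterozygous libraries 1 and 2. The pairs were chosen after their values were seen, and no test was made of them.

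Nup35, also known as Nup53, encodes the small inner ring linker that binds Nup155, Nup93 and Ndc1 (chr2:80617236-80658906, plus strand). It read 488, 571, 366, 505 and 448 in controls and 699, 758, 410, 471 and 507 in heterozygous libraries 1 to 5. Heterozygous libraries 1 and 2 exceeded the control range and the other 3 lay within it. Limma gave 0.23 on the log2 scale (95% interval -0.15 to 0.62, limma adjusted p = 0.386), 0.63 with only libraries 1 and 2 against the controls (adjusted p = 0.0163) and -0.03 with only libraries 3, 4 and 5 (adjusted p = 0.907). Its exons share 131 bases with Dusp19, which averaged 37 ± 8.81 and 35.3 ± 27.9 normalized reads (SD, n = 5 each).

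Nup54, the member of the central channel complex (chr5:92415540-92435219, minus strand), read 804, 846, 751, 759 and 752 in controls and 877, 1013, 735, 773 and 723 in heterozygous libraries 1 to 5. Libraries 1 and 2 were again above the controls, and libraries 3 and 5 were below them. Limma gave a log2 fold change of 0.06 (95% interval -0.18 to 0.31, limma adjusted p = 0.726), 0.27 with only libraries 1 and 2 (adjusted p = 0.137) and -0.07 with only libraries 3, 4 and 5 (adjusted p = 0.647).

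Aaas encodes ALADIN, whose loss causes triple A syndrome in humans, and lies at chr15:102338252-102350771 on the minus strand. It read 1236, 1235, 1167, 1329 and 1102 in controls and 1668, 1855, 1161, 1392 and 1488 in heterozygous libraries 1 to 5. All but heterozygous library 3 were above every control. Its log2 fold change of 0.30 (SE 0.127, 95% interval 0.03 to 0.58) was not called (limma adjusted p = 0.123). It was called without heterozygous library 3 (log2 fold change 0.39, adjusted p = 0.0445) and without libraries 3, 4 and 5 (0.54, adjusted p = 0.00666), and not without libraries 1 and 2 (0.15, adjusted p = 0.383).

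For the other transmembrane genes the difference was smaller than the spread between libraries. Ndc1, which anchors the inner ring to the membrane and recruits ALADIN (chr4:107367784-107416346, plus strand), read 2638, 2685, 2097, 2508 and 2092 in controls and 2133, 2692, 2053, 2941 and 2277 in heterozygous libraries. The groups overlapped (log2 fold change 0.0038, 95% interval -0.27 to 0.28, limma adjusted p = 0.988). Without heterozygous libraries 1 and 2 it stood at 0.0037, and without libraries 3, 4 and 5 at 0.0039. Nup210 encodes gp210, a membrane nucleoporin whose large domain lies in the lumen of the nuclear envelope and whose level varies between cell types (chr6:91013068-91116829, minus strand). It read 2896, 2305, 3056, 2534 and 2484 in controls and 2725, 2973, 2697, 2999 and 2325 in heterozygous libraries, every one of the latter within the control range (log2 fold change 0.05, 95% interval -0.20 to 0.29, limma adjusted p = 0.793). It stood at 0.010 without libraries 1 and 2 and at 0.11 without libraries 3, 4 and 5. Nup210l, the paralog of Nup210, had at most 9.23 normalized reads in any library.

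**Figure D2:**
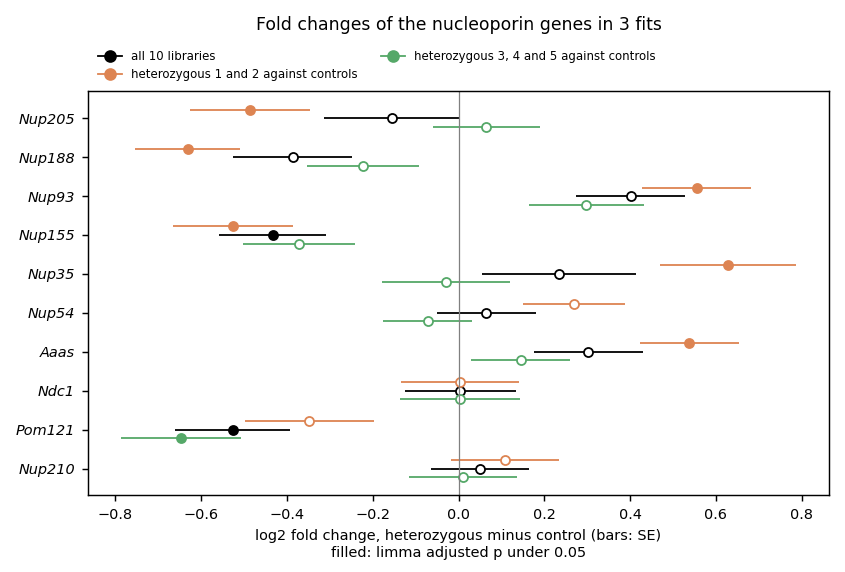
Log2 fold changes of the 10 genes with their SE from limma, with all 10 libraries (black), without heterozygous libraries 3, 4 and 5 (orange) and without heterozygous libraries 1 and 2 (green); filled points have an adjusted p under 0.05. The orange and green fits share the 5 controls, and Nup205 stands at -0.49 in the first and 0.06 in the second.

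The 10 genes thus varied within the heterozygous group as well as between groups. In heterozygous libraries 1 and 2 set against the controls, 3 genes were called higher (Nup93, Nup35 and Aaas) and 3 lower (Nup205, Nup188 and Nup155), where 7.44% and 8.22% of all tested genes were called. In libraries 3, 4 and 5 against the same controls, Pom121 was called lower and none was called higher by limma, where 12.1% and 9.33% of all genes were called. At that setting the log2 fold changes of the other 9 genes ran from -0.37 (Nup155) to 0.30 (Nup93). Both fits share the controls, and the difference between the sets of heterozygous libraries was not tested, since the sets were defined from the data. For the same reason the calls within each set are a description, and those of libraries 1 and 2 rest on 2 heterozygous libraries. Shares among genes with a mean of at least 100 were not computed for these 2 fits.

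Levels also differed by transcript length between libraries. Genes with a mean of at least 100 were put into 5 classes by exonic length, with 1768 or 1769 genes in each. In the shortest class, up to 2460 bases, the median log2 level relative to the control mean was 0.23 and 0.28 in heterozygous libraries 1 and 2, and in the longest, from 7642 bases, it was -0.17 and -0.10. In heterozygous libraries 3 and 4 the shortest class stood at -0.0024 and 0.10 and the longest at 0.13 and 0.07, and in library 5 they stood at 0.24 and -0.04, so that its shortest class was as high as that of library 1. In single control libraries the class medians lay between -0.11 and 0.09.

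Aaas, Nup54, Nup35 and Nup93, with 2798, 3328, 3366 and 4257 exonic bases, had positive log2 fold changes in libraries 1 and 2 against the controls. Pom121, Nup188, Nup205 and Nup155, with 5580, 6241, 9306 and 11951 bases, had negative ones. Ndc1, with 4924 bases, stood at 0.0039 and Nup210, with 10474 bases, at 0.11. Over the 10 genes, log2 exonic length and log2 fold change had r = -0.73 in libraries 1 and 2 and r = -0.33 in libraries 3, 4 and 5, given as a description over genes that share libraries. With each library centred on its length classes, Pom121 (log2 fold change -0.59, adjusted p = 0.0212), Nup155 (-0.40, adjusted p = 0.0303) and Nup188 (-0.45, adjusted p = 0.0322) were called lower, and Nup93 stood at 0.29 (adjusted p = 0.153). In that fit 10.5% of all genes were called lower and 3.46% higher. The part of transcript length in the differences was not tested beyond this centring.

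**Figure D3:**
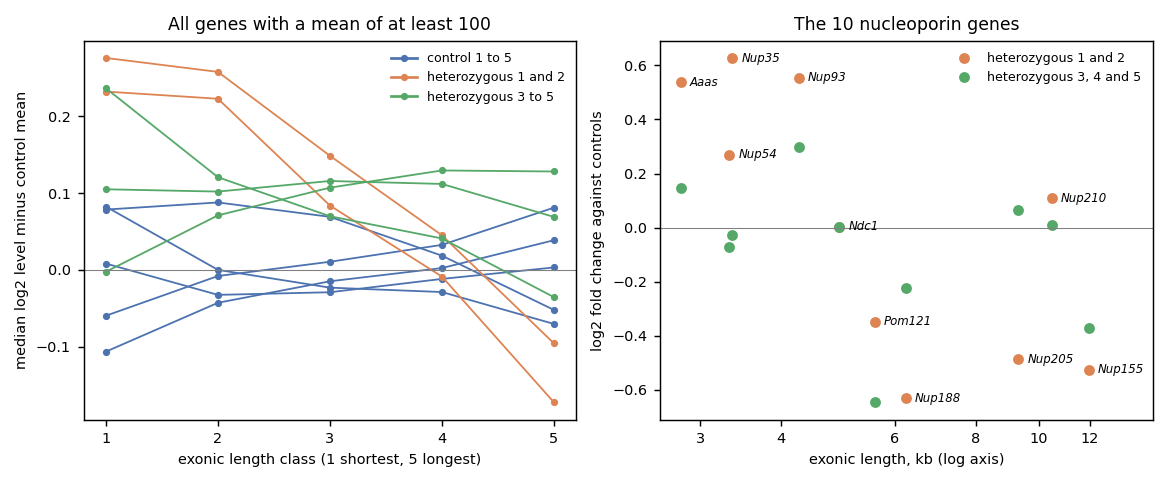
Left, median log2 level minus the control mean in 5 classes of exonic length, 1 line per library (blue control, orange heterozygous 1 and 2, green heterozygous 3 to 5). Right, log2 fold change against exonic length (log axis) of the 10 genes, where the orange points run from Nup35 at 0.63 to Nup188 at -0.63.

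Levels of different genes were compared per kilobase of exon. In controls the order, with normalized reads per kb and SD (n = 5), was Ndc1 at 488 ± 58.9, Aaas at 434 ± 30.4, Nup93 at 285 ± 32.1, Nup210 at 253 ± 29.6, Nup54 at 235 ± 12.6, Nup35 at 141 ± 22.5, Nup188 at 97.8 ± 5.50, Pom121 at 63.5 ± 7.09, Nup155 at 58.9 ± 6.06 and Nup205 at 51.4 ± 3.72. The span from Ndc1 to Nup205 was 9.49-fold. Ndc1 and Aaas overlapped between libraries, as did the neighbours among Nup93, Nup210 and Nup54 and those among Pom121, Nup155 and Nup205. The other neighbours did not overlap in any control library. In heterozygous libraries Aaas averaged 541 ± 94.6 and Ndc1 491 ± 77.6 normalized reads per kb (SD, n = 5 each). Exonic length counts every annotated exon, also those that these cells may not use. For Nup155, 4173 of the 11951 exonic bases are coding in the longest coding transcript.

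**Figure D4:**
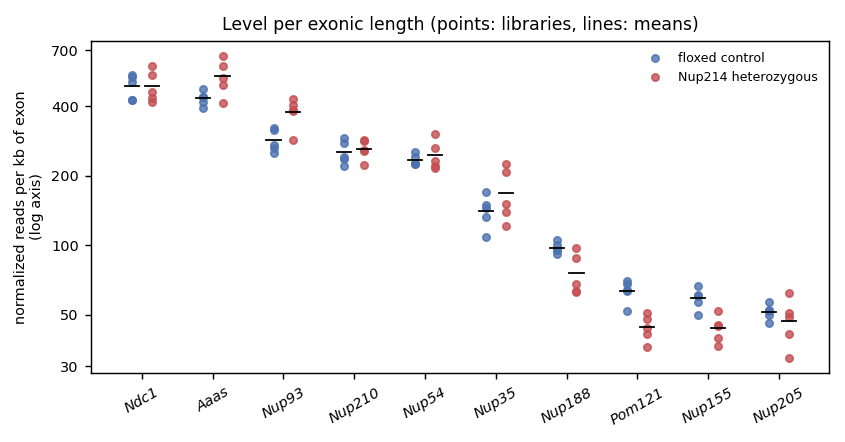
Normalized reads per kb of exon (log axis) of the 10 genes in each library, ordered by control mean, with lines at group means. Ndc1 and Aaas are highest in both groups, and Pom121, Nup155 and Nup205 stand between 32.6 and 70.0 in all libraries.

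Some other genes of the pore had differences as large as those of Nup93 and Nup188. Of 21 other nucleoporin genes tested, Nup214 was called lower and none was called higher by limma, with 2 in each direction at an unadjusted p under 0.05 (Nup214 included). Of all genes, 8.01% were called lower and 5% higher, with 21.6% and 10.5% at an unadjusted p under 0.05. By edgeR 0 were higher and 1 lower, and by DESeq2 2 were higher and 1 lower. The median log2 fold change of the 21 was -0.0037. Sec13 and Nup85, scaffold subunits of the outer ring, had control means of 3828 ± 466 and 1400 ± 162 normalized reads and heterozygous means of 5176 ± 878 and 1877 ± 336 (SD, n = 5 each). Their log2 fold changes were 0.43 and 0.41 (limma adjusted p = 0.0531 and 0.0683). Both passed when heterozygous library 3 was left out (limma adjusted p = 0.0220 and 0.0176). Nup153, of the nuclear basket, had a log2 fold change of -0.41 (limma adjusted p = 0.117). Without heterozygous libraries 3, 4 and 5, 4 of the 21 were higher and 4 lower, where 7.44% and 8.22% of all genes were called. Nup58 of the central channel, listed under its older symbol Nupl1, was at 0 to 5.62 normalized reads and is counted among the 21. The authors' annotation was not given, so whether this row holds all reads of Nup58 is not known.

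In a list of genes for pore assembly and membrane shaping, some were higher in heterozygous cells. Whether they act on pores in these cells was not tested. Of 19 genes for pore assembly and membrane shaping, 4 were called higher and 0 lower by limma (also 4 and 0 by edgeR and DESeq2, with 0 lower at an unadjusted p under 0.05), against 5% and 8.01% of all genes. All but Chmp4b and Nek6 of the list had means of at least 100, where 10.2% of genes were called higher and 3.54% lower. Tmem33, a membrane protein of the endoplasmic reticulum that binds reticulons, rose from 1062 ± 161 to 1515 ± 126 normalized reads (limma adjusted p = 0.0174). Vps4b, the ATPase that recycles the ESCRT machinery used in sealing the nuclear envelope, rose from 2328 ± 121 to 3207 ± 312 (adjusted p = 0.0133). Reep3, which clears endoplasmic reticulum from mitotic chromosomes, rose from 964 ± 176 to 2624 ± 1117 (adjusted p = 0.00738). Heterozygous libraries 1 and 2 of Reep3 read 1589 and 1453, and libraries 3, 4 and 5 read 3617, 3873 and 2586. Its log2 fold change was 0.68 with only libraries 1 and 2 against the controls and 1.80 with only libraries 3, 4 and 5 (adjusted p = 0.0114 and 1.6e-05). Reep5, a membrane-curving protein, rose from 3079 ± 237 to 4935 ± 1030 (adjusted p = 0.0102; SD, n = 5 for each). After quantile normalization Reep3 was the 1 gene of the list still called (Tmem33, Vps4b and Reep5 adjusted p = 0.0847, 0.132 and 0.0526). Tmem33, Vps4b and Reep5 were called with either set of heterozygous libraries left out, with log2 fold changes of 0.50, 0.47 and 0.80 without libraries 1 and 2 and 0.55, 0.44 and 0.45 without libraries 3, 4 and 5. The list's median log2 fold change was 0.12.

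Of 18 genes of the nuclear lamina and envelope, 1 was called higher and 0 lower by limma, edgeR and DESeq2, with 4 and 2 at an unadjusted p under 0.05. Of all genes, limma called 5% higher and 8.01% lower, with 10.5% and 21.6% at an unadjusted p under 0.05. The called gene was Tmem43, an inner nuclear membrane protein, at 3187 ± 176 and 5024 ± 463 normalized reads (SD, n = 5 each, limma adjusted p = 0.00229), with a log2 fold change of 0.70 without heterozygous libraries 1 and 2 and 0.58 without libraries 3, 4 and 5. The median of the 18 log2 fold changes was 0.02. Since pores are built in dividing cells, 18 proliferation genes were set beside them. Limma called 4 higher (Pcna, Mcm3, Rrm2 and Tyms) and 0 lower, against 5% and 8.01% of all genes. Among genes with a mean of at least 100 those shares were 10.2% and 3.54%. EdgeR called 2 and 0, DESeq2 called 4 and 0, and none was called after quantile normalization. The median log2 fold change of the 18 was 0.12. Pcna, the replication clamp, averaged 8988 ± 512 and 12734 ± 1351 normalized reads (limma adjusted p = 0.0156). Its adjusted p was 0.135 after quantile normalization, and its log2 fold change was 0.47 without heterozygous libraries 1 and 2 and 0.54 without libraries 3, 4 and 5.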

How the data were processed

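Per the labels' protocols, RNA was extracted with a miRNeasy kit, amplified by Geo-seq and made into TruePrep libraries. No molecular identifiers are described, so precision from depth covers counting error only. Per the submitters' processing notes, Bowtie 0.12.9, Cufflinks 2.1.1, HTSeq and DESeq2 were used with mm10, with no roles given. The authors' annotation was not given. The signal that the authors deposited behaves as reads scaled by 1 number for each library: of the values above 0, at least 99.869% in any library were whole multiples of that library's step, within 0.01 of a read.

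A gene entered the test when 5 or more libraries held 1 normalized read or more, which left 22458 genes. Group was fitted on log2(normalized reads + 1) by limma 3.58.1 (trend option, R 4.3.3). Fold changes are on this scale, and calls needed a Benjamini-Hochberg adjusted p under 0.05. Alternatives included edgeR 4.0.16 and DESeq2 1.42.0 on recovered reads. Whether each library is a separate mouse is not stated, and the p-values therefore reflect the spread among these libraries, which may be technical. Exonic lengths came from GENCODE M21 and figures from matplotlib 3.10.9. On simulated counts with the same number of libraries (3 runs, 22458 genes), 200 genes were changed per run. Limma called 9.33% of well-covered genes changed 1.5-fold and 74% of those changed 2-fold. In the data 13% of genes were called, so the adjustment there was not the same, and these shares do not give the sensitivity of the real fit.

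The members and lists were chosen with earlier results of these data known. Named genes are the 10 members, Nup214, up to 4 genes of smallest p in each list described, and the 3 genes most like the member of smallest p. Genes overlapping a member or related to it by sequence were added for the comparison with it. Marker genes of cell types are named outside this rule.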

Additional observations from a re-analysis of the deposited data

How the results depend on the processing

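Across 24 alternatives, 1 of them (centring on exonic length classes) added after seeing the data, Nup214 was called in 24, with log2 fold changes from -1.05 to -0.83. Pom121 was called in 18 (-0.65 to -0.35) and Nup155 in 11 (-0.53 to -0.37), and neither turned direction. The replicate block left 703 genes higher and 945 lower and 1 member lower, with Nup155 at an adjusted p of 0.0866 and Pom121l2 at 0.0735; same-numbered libraries deviated from their group means with correlations of -0.23 to 0.21, and 1 of 5 controls correlated best with its own number, so the numbers were not taken to pair the libraries. Genes called lower numbered 517 after quantile normalization, 1119 with no filter, 1063 with a filter of 5 in 5 libraries, 311 among means of at least 100, 1028 with a pseudocount of 0.1 and 808 with edgeR. Leaving out 1 library at a time gave 559 to 1313 higher and 599 to 2250 lower genes, and 0 to 2 members in either direction. TMM scaling gave 1 member higher and 1 lower, no filter and sample quality weights 1 lower, and DESeq2 1 higher. Without heterozygous libraries 1 and 2, 2095 genes were higher, 2707 lower and 1 member lower, and without libraries 3, 4 and 5, 3 members were higher. The cause of these shifts was not tested.

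Direction turned for genes that were not called. Ndc1 stood at -0.18 after quantile normalization, -0.056 after upper quartile scaling, -0.034 with edgeR and -0.10 with length centring, and ranged from -0.070 to 0.059 when 1 library was left out. Nup54 stood at -0.043 after quantile normalization, -0.062 with length centring and -0.072 without heterozygous libraries 1 and 2, and ranged from -0.013 to 0.11 when 1 library was left out. Nup210 stood at -0.13 after quantile normalization and -0.010 after upper quartile scaling. Without heterozygous libraries 1 and 2, Nup205 stood at 0.065 and Nup35 at -0.029. Nsun5 stood at 0.018 after TMM scaling and 0.062 without heterozygous libraries 3, 4 and 5. Over all tested genes the median log2 change was -0.19, against -0.28 with length centring and -0.02 after quantile normalization.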
